A study of Homo sapiens with 6 samples.

Results

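The genes of the proteasome were followed in LNCaP cells, an established human prostate cancer line that responds to androgens, over 48 h with dihydrotestosterone (DHT), a potent natural androgen. Members were the lines of the count table whose symbol began with PSMA to PSMG and a number, leaving out PSMB8 and PSMB9. This gave 43 of 17990 genes, and all 43 had a mean of at least 20 counts per library, the minimum for entering a comparison. The lowest mean among them, 107 counts, was that of PSMA8. Of the 43, 8 are alpha ring and 8 beta ring genes of the core, 6 belong to the ATPase ring, 2 to the non-ATPase base, 8 to the lid, 4 are activators and 6 are assembly chaperones. The remaining gene, PSMC3IP, is caught by its name only and encodes a recombination protein that is not a proteasome subunit. Cells were held for 3 days in serum stripped of hormones. There was 1 library of cells not yet given DHT (0 h), and 10 nM DHT was then given for 3, 6, 12, 24 or 48 h, with 1 library for each. The series asked which transcripts androgen regulates over this time. The members lie on 17 chromosomes, 8 of them on chromosome 17 and 7 on chromosome 14, among these PSMA3, PSMC6 and PSME1.

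The proteasome is the cell's main protease for proteins tagged with ubiquitin. Its core is a barrel of outer alpha and inner beta rings, with the proteolytic sites on beta subunits, and a regulatory particle on each end, built of an ATPase ring, a base and a lid, binds, unfolds and feeds in the substrate. The subunits are needed in fixed proportions, and their genes are known to be raised together by the transcription factor NFE2L1 when proteasome activity is short.

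With 1 library per time, no difference could be tested across replicates, and all 5 comparisons share the 0 h library. No library of cells without DHT was made at 3 to 48 h, so DHT and time in culture cannot be told apart. The libraries held 13179917 to 20587956 counts over listed transcripts. Levels are given as CPM, counts divided by the library total, on a scale common to all libraries. Changes are log2((CPM + 1) with DHT over (CPM + 1) at 0 h), which understates changes of low genes, and "higher" or "lower" as a call means a change of at least 1.5-fold on this scale. Ratios are of CPM without the added 1, with exact conditional binomial 95% intervals that cover counting error only. The LNCaP markers KLK3, KLK2, TMPRSS2, FOLH1, HOXB13, KRT8 and KRT18 were present in all 6 libraries. Of 14 markers of leukocytes, fibroblasts, basal epithelium and endothelium, 12 did not pass 0.881 CPM in any library, and 3 to 9 were at 0 in each. Their summed level, nearly all from COL1A1 and VWF, was 79.4 CPM at 0 h and 37.5 to 90.1 CPM with DHT, and its part in any member's change was not tested. In the 12 h library chromosome 4 and distal chromosome 15 held 0.592% of the counts, against 3.51 to 4.47% in the others. PSMA4, on distal chromosome 15, therefore has no 12 h value here, and all genes of these regions or of unknown place were left out at 12 h. The 12 h total was not adjusted for this shortfall, which raises the CPM of all other genes there slightly. Calls at 12 h close to the 1.5-fold size are uncertain for this reason. In bulk RNA, fewer cells of a type and less RNA per cell cannot be told apart.

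Promoter sequences are shown for 4 members that mark the range of the changes. PSMD8 is the lid gene that stood farthest above the change usual for its GC content at 24 h. PSMA3 and PSMD5 are the alpha ring and chaperone genes with the largest increase at 24 h, and PSME1 had the largest decrease. Each window runs from 250 bases before to 50 bases after the start in RefSeq (GRCh38.p14), 5′ to 3′ on the gene's strand. Windows lie at chr19:38374321-38374620, plus strand for PSMD8, at chr14:58244593-58244892, plus strand for PSMA3, at chr9:120842873-120843172, minus strand for PSMD5 and at chr14:24135944-24136243, plus strand for PSME1. Capitals mark matches to 4 motifs on either strand. These are CCAAT, the NF-Y box (ATTGG on the other strand), TGACNNNGC, a partial antioxidant-type element of the kind NFE2L1 binds, CCGGAAG, an ETS site (CTTCCGG on the other strand), and TGACG, a CRE half-site.
PSMD8: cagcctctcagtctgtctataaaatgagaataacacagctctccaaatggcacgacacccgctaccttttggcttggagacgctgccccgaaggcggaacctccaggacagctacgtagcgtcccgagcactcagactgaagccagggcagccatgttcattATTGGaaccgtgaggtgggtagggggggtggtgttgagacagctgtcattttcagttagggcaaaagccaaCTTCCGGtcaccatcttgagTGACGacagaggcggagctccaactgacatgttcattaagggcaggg
PSMA3: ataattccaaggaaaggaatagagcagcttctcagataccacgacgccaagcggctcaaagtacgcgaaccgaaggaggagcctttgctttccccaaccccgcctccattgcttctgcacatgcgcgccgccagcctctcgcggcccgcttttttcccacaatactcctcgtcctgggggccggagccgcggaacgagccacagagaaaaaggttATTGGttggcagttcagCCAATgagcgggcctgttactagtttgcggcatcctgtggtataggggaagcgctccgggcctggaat
PSMD5: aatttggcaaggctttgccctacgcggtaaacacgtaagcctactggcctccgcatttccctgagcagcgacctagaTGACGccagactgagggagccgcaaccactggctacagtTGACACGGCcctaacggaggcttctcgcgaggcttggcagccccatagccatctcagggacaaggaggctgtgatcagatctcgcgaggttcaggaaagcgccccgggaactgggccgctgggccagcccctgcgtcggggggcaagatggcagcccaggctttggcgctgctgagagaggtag
PSME1: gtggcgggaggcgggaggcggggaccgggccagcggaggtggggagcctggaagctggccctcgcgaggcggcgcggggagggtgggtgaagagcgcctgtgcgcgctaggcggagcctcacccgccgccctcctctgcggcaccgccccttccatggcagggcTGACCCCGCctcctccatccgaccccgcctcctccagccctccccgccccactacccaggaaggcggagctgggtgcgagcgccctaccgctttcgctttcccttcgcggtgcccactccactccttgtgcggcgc
The PSMD8 window held an NF-Y box 88 bases before the start, an ETS match 17 bases before it and a CRE half-site just after it. The PSMA3 window held 2 NF-Y boxes in opposite directions, 35 and 18 bases before the start. PSMD5 had a CRE half-site and an antioxidant-type match, and PSME1 an antioxidant-type match alone. RefSeq windows were found for 38 of the 43 members, 46 windows in all. The antioxidant-type element was in 30.4% of these windows, against 13.3% of all 35116 windows, and the ETS match in 32.6% against 10.3%. The NF-Y box was in 43.5% against 34.6%, and the CRE half-site, which can overlap the antioxidant-type element at TGAC, in 34.8% against 24.6%. The E-box CACGTG was in 6.52% against 7.26%. The 35116 windows were not limited to tested genes, whereas all members were tested. Windows and not genes were counted, and 7 members had several. PSMC3IP, not a proteasome subunit, is among the members with an NF-Y box and an ETS match. A match is a stretch of letters and no evidence of binding, and the member windows had a median GC content of 62.0% against 58.7% for all windows.

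Proteasome genes moved little at 3 h and then parted. PSMC6, PSMA3 and PSMD5 went up more than 2-fold, the median of the beta ring was -0.43 at 48 h, and PSME1 reached a ratio to 0 h of 0.536 at 48 h. After an adjustment for the GC content of transcripts no change of PSMC6, PSMA3 or PSMD5 passed 2-fold, and the beta ring's median at 48 h was -0.16. With the GC content of the coding sequence PSMD5 did pass 2-fold at 24 h, at 1.11, and PSMC6 and PSMA3 did not at any time. At 3 h the median change was 0.18 over members and -0.08 over all 11916 tested genes, 33 of 43 members were above zero against 39.4% of all genes, and none was called higher (2.52% of all genes) or lower (8.13%). At 6 h the members' median was 0.20 against 0.08, with 9 members higher, 20.9% of them against 28.5% of all genes, and 0 lower against 13.4%. At 12 h it was 0.35 over 42 members against 0.08 over 11070 genes, with 15 higher, 35.7% against 25.9%, and 0 lower against 13.4%. At 24 h the median was 0.11 against -0.09, with 11 higher, 25.6% against 21.6% of all genes, and 2 lower, 4.65% against 24.2%. At 48 h it was 0.05 against -0.06, with 8 higher, 18.6% against 25.4%, and 4 lower, 9.30% against 22%. The shares of members called higher were thus above the background at 12 and 24 h and below it at 3, 6 and 48 h, while the shares called lower were below it at every time. Without PSMC3IP the medians were 0.18, 0.13, 0.30, 0.09 and -0.02 in the order of time, so the median at 48 h changed sign.

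At least 2-fold higher were PSMC6, PSMA3 and PSMD5 at 6 h (15.3% of all genes), at 12 h (11.6%) and at 24 h (10.5%), and the same 3 genes with PSME4 at 48 h (15%). No member was at least 2-fold higher at 3 h (0.747%) or 2-fold lower at any time, against 0.864, 3.01, 3.86, 10.8 and 7.33% of all genes in the order of time. Over the whole course 23 of 43 members, 53.5%, stayed within 1.5-fold of 0 h at every time used, against 31.7% of all genes. The median ratio of a gene's highest to its lowest CPM was 1.58 over members and 2.01 over all genes. The summed counts of the other 42 members, with PSMA4 left out at every time, were 0.516% (0.512 to 0.520) of all counts at 0 h, with the Wilson 95% interval in parentheses. They were 0.599% (0.595 to 0.603) at 3 h, 0.528% (0.524 to 0.532) at 6 h, 0.603% (0.599 to 0.607) at 12 h, 0.555% (0.552 to 0.558) at 24 h and 0.493% (0.490 to 0.497) at 48 h. The share was therefore highest at 3 and 12 h and at 48 h lay below 0 h. The 12 h share is raised slightly by the shortfall of chromosome 4 and distal chromosome 15, so the order of 3 and 12 h is uncertain.

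**Figure D1:**
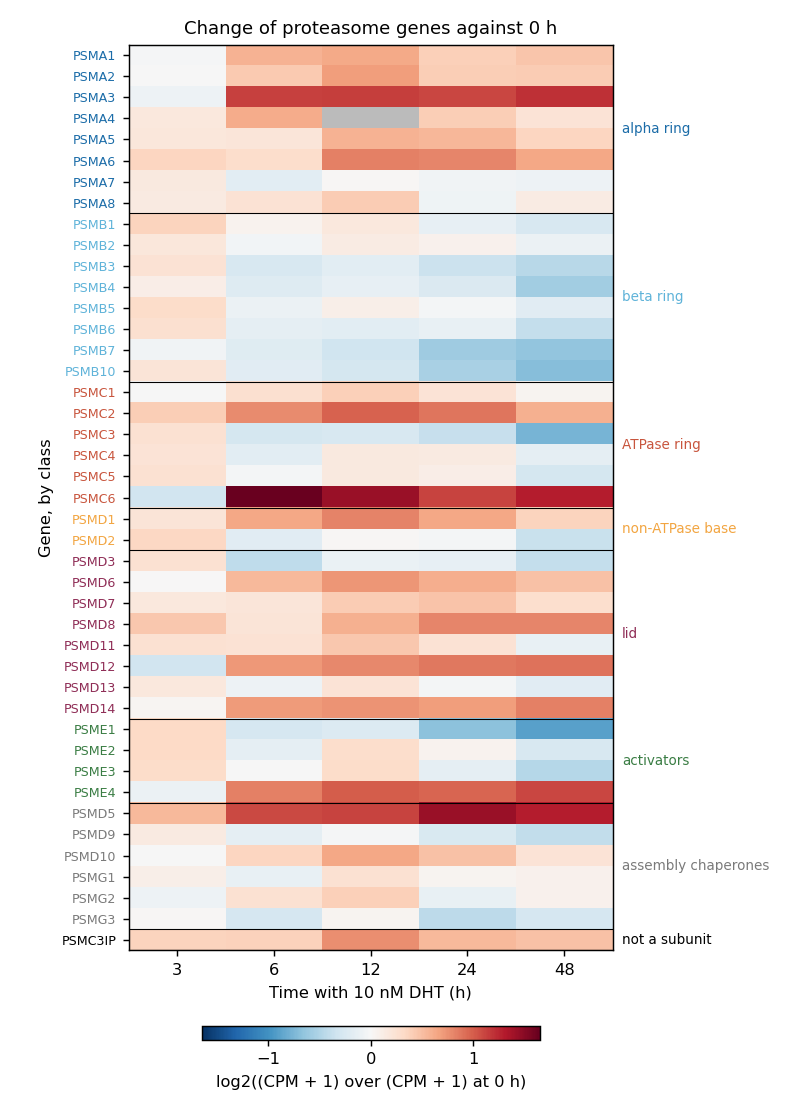
Log2((CPM + 1) over (CPM + 1) at 0 h) of the 43 genes (rows, by class) at 3, 6, 12, 24 and 48 h with 10 nM DHT (columns), 1 library per time, red for higher and blue for lower; grey marks the 12 h value of PSMA4, which was not used. PSMA3, PSMC6, PSME4 and PSMD5 are the darkest red from 6 h on, and the beta ring is pale or blue from 6 h on, all 8 of its genes being below zero at 48 h.

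The change of a member followed the GC content of its transcript, as it did for genes at large. Across 42 members with a known GC content (GENCODE v29 transcripts, GRCh38) Pearson's r was 0.37 at 3 h and -0.76, -0.75, -0.68 and -0.70 at 6, 12, 24 and 48 h, and across all genes 0.23 and -0.74, -0.62, -0.51 and -0.56. Spearman's rho over members was 0.36, -0.79, -0.75, -0.67 and -0.71. These points share 1 pair of libraries per time, and genes are no replicates. The 14 members of lowest GC content, 36.0 to 45.8%, had a median of 0.75 at 24 h with 9 called higher, whereas the 14 of highest GC content, 52.2 to 60.1%, had a median of -0.12 with 1 called higher and 1 lower. Over all tested genes, whatever their GC content, 21.6% were higher and 24.2% lower at 24 h. The first 14 include PSMA3, PSMC6, PSMC2, PSMD5, PSMD12 and PSME4, and the last 14 include PSMC3, PSMD3, PSME1 and PSMB10. How far the GC content of transcripts, the libraries, time in culture and DHT each take part cannot be told apart with 1 library per time.

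The main changes are therefore given beside their distance from the trend of all genes on GC content, a lowess curve subtracted from them ("GC-adjusted"). After this, 0 of 42 members were called higher at 6 h (10.7% of all genes), and 2 lower (7.72%), PSMA8 and PSMA5. As measured, these 2 were above 0 h at 6 h, at 0.24 and 0.20. At 12 h, 2 were higher (11.4%), PSMD8 and PSMC3IP, and 1 lower (10.3%), PSMA8. At 24 h, 5 were higher (16.5%), PSMD8, PSMD5, PSMC3IP, PSMA6 and PSMA3, and PSMA8 was lower (16%). At 48 h, 4 were higher (16.4%), PSMD8, PSMC3IP, PSMD14 and PSMD5, and 2 lower (14.6%), PSMA8 and PSMA5. As measured, PSMA5 was at 0.35 at 48 h. With the GC content of the coding sequence PSMA5 was at -0.29 at 6 h and 0.06 at 48 h, not called. At 3 h, where the GC trend ran the other way, 2 were higher (3.36%), PSMD5 and PSMC2, 0 lower (3.50%), and 40 of 42 members were above zero against 52.2% of all genes. GC-adjusted changes of at least 2-fold were fewer. Higher were 0 members at 3 h (0.943%), 6 h (3.8%) and 12 h (4.15%), and PSMD8 alone at 24 h (7.08%) and 48 h (7.15%). Lower was PSMA8 at 6 h (1.56%) and 48 h (4.82%), and 0 members at 3 h (0.431%), 12 h (3.01%) and 24 h (6.57%).

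The GC-adjusted medians were 0.25, -0.00412, 0.19, 0.22 and 0.05 in the order of time, and with the GC content of the coding sequence 0.25, -0.16, 0.08, 0.17 and -0.06. A median above zero at 3, 12 and 24 h was thus present before and after both adjustments.

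**Figure D2:**
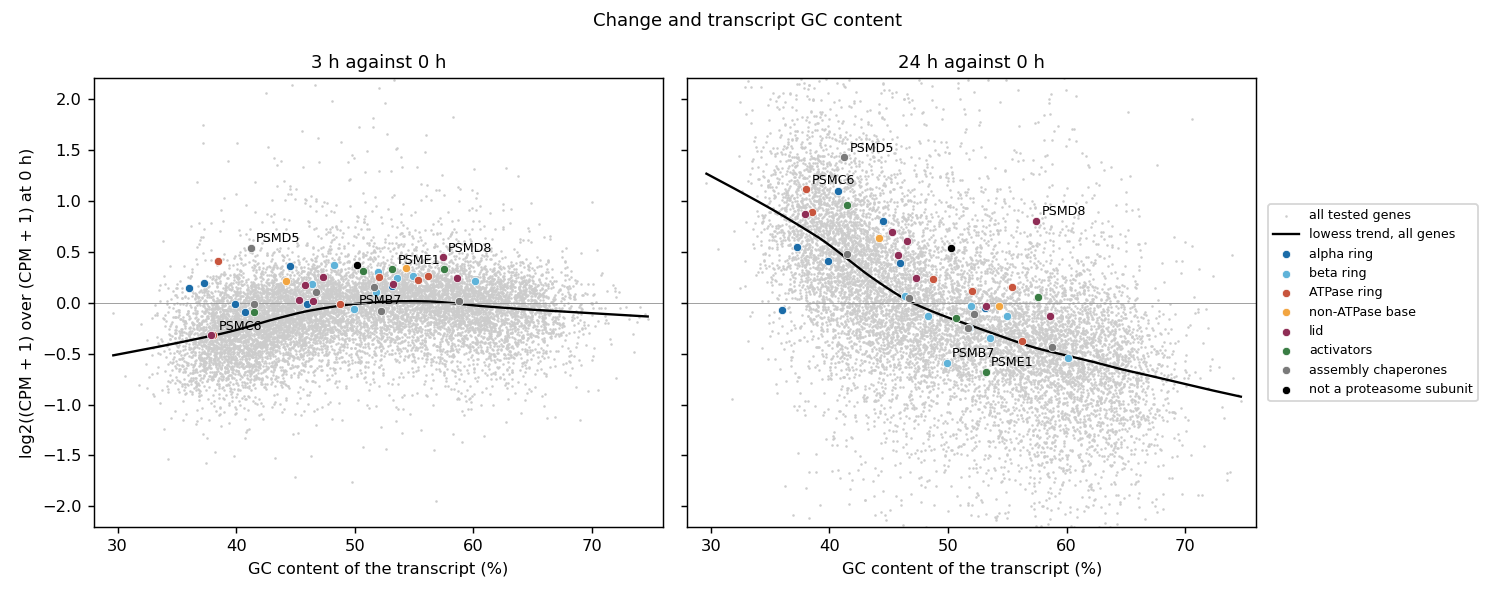
Log2 change against 0 h (vertical) by the GC content of the transcript in percent (horizontal) at 3 h and 24 h; grey points are all tested genes, the line is their lowess trend, and coloured points are members by class. Members lie mostly above the line at 3 h, and at 24 h most fall with GC content, with PSMD8 (57.4% GC, 0.80) far above the line and PSMA8 (36.0% GC, -0.07) far below it; 6 of 11138 genes at 3 h and 231 at 24 h lie outside the frame.

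In the alpha ring, which forms the gate of the core, 2 of 8 genes were higher at 24 h, PSMA3 and PSMA6, and none was lower. These are 25% of the ring, near the 21.6% of all genes that were higher, while 24.2% of all genes were lower. PSMA3 was at 39.5, 37.1, 87.7, 88.6, 85.9 and 92.8 CPM, given as for all genes in the order of time from 0 h. It was flat at 3 h and at about one level from 6 h on, with a ratio to 0 h of 2.17 (95% interval 1.97 to 2.40) at 24 h and 2.35 (95% interval 2.12 to 2.60) at 48 h. PSMA6 was at 74.7, 96.2, 91.3, 133, 131 and 117 CPM, a ratio of 1.75 (95% interval 1.63 to 1.89) at 24 h. Their GC-adjusted changes at 24 h were 0.60 and 0.63, and 0.44 and 0.29 with the GC content of the coding sequence in place of the transcript's, below the 1.5-fold size of 0.58. PSMA1 and PSMA2 were called higher at 12 h alone, at 0.63 and 0.69, and PSMA5 came close to the size there, at 0.58. GC-adjusted, the 3 were at 0.38, -0.06 and -0.37. With the GC content of the coding sequence they were at -0.02, 0.10 and 0.17. PSMA4 was at 100.1, 113, 153, 133 and 117 CPM, with 12 h left out, and was called higher at 6 h, at 0.61. PSMA7 kept within -0.17 and 0.16 of 0 h. PSMA8, which stands in for PSMA7 in the proteasome of testis, was the lowest alpha gene at 6.37, 7.16, 7.68, 8.88, 6.02 and 7.11 CPM, with no change past 1.5-fold. With its transcript of 36.0% GC it lay far below the GC trend, at -0.93 at 24 h. The ring's median was 0.41 at 24 h and 0.38 at 48 h, 0.22 and 0.24 after the GC adjustment, and 0.06 and -0.06 with the GC content of the coding sequence.

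The beta ring holds the catalytic sites, and no beta gene was higher than 1.5-fold at any time. Its median was 0.22 at 3 h and -0.17, -0.15, -0.19 and -0.43 later. GC-adjusted, the later medians were nearer to zero, at -0.09, -0.02, -0.02 and -0.16, and 7 of the 8 genes were below zero at 48 h. Median-of-ratios scaling gave -0.09 at 24 h. Without the adjustment the number of the 8 genes below zero was 1 at 3 h, 7 at 6 h, 5 at 12 h, 7 at 24 h and 8 at 48 h. PSMB5, the chymotrypsin-like subunit and main target of proteasome inhibitors, was at 191, 235, 179, 204, 186 and 168 CPM. PSMB6, the caspase-like subunit, was at 121, 146, 109, 108, 111 and 92.2 CPM. Both were highest at 3 h and lowest at 48 h, where their ratios to 0 h were 0.877 (95% interval 0.829 to 0.927) and 0.760 (95% interval 0.707 to 0.818).

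PSMB7, the trypsin-like subunit, was at 354, 339.5, 308, 281, 235 and 224 CPM and so was lower at each later time than at the one before. Its ratio was 0.663 (95% interval 0.637 to 0.690) at 24 h and 0.633 (95% interval 0.606 to 0.662) at 48 h, both called lower. Its GC-adjusted changes were -0.45 and -0.47, short of the 1.5-fold size. With the GC content of the coding sequence they were -0.58, just short of that size, and -0.62, past it. PSMB10, which can take the place of PSMB7 and is known to be raised by interferon, was at 33.1, 38.4, 28.9, 26.9, 22.4 and 19.9 CPM, a ratio of 0.601 (95% interval 0.517 to 0.698) at 48 h, and was called lower there. It has the highest GC content of the members, 60.1%, and its GC-adjusted change at 48 h was -0.24. PSMB2, the beta gene with the highest change at 24 h, was at 112, 127, 108, 124, 118 and 105 CPM, within counting error of 0 h at 24 h by its ratio of 1.05 (95% interval 0.983 to 1.12). PSMB1, PSMB3 and PSMB4 were at -0.26, -0.46 and -0.57 at 48 h, none called.

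**Figure D3:**
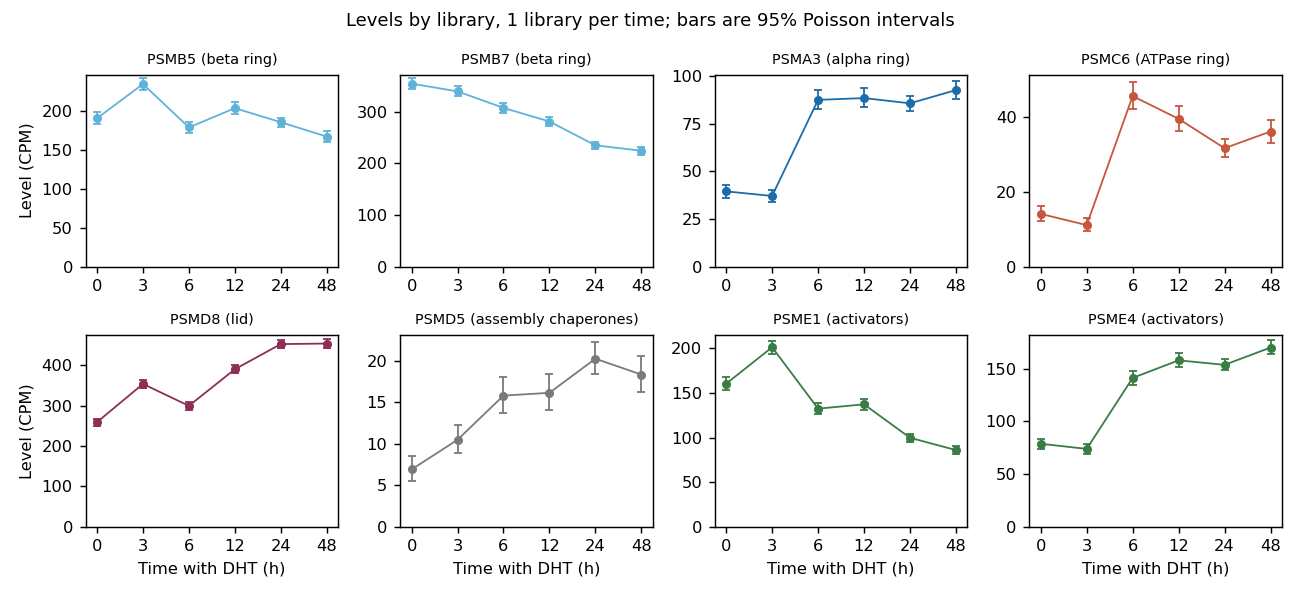
Level in CPM (vertical, from 0) by time with DHT in h (horizontal, evenly spaced times) for 8 members, 1 library per time; bars are exact Poisson 95% intervals, which cover counting error only. PSMA3, PSMC6 and PSME4 step up between 3 and 6 h, PSMB7 goes down at each time, and PSMD8 reaches 453 CPM at 24 h from 259 CPM at 0 h.

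The 6 genes of the ATPase ring, whose proteins hydrolyse ATP to unfold the substrate, did not move as one. PSMC6 was at 14.0, 11.1, 45.5, 39.4, 31.6 and 36.0 CPM. It was lower at 3 h than at 0 h and highest at 6 h, with ratios of 0.787 (95% interval 0.632 to 0.980) and 3.24 (95% interval 2.74 to 3.84), and at 24 h the ratio was 2.25 (95% interval 1.91 to 2.66). PSMC2 was higher at 6, 12 and 24 h, with changes of 0.79, 0.97 and 0.89, and at 0.58 was just short of 1.5-fold at 48 h. Both have transcripts of low GC content, 38.1% and 38.5%, and their GC-adjusted changes at 24 h were 0.40 and 0.20. With the GC content of the coding sequence these were 0.53 and 0.62, the latter past 1.5-fold. PSMC3, at 56.2% GC, went the other way, with 189, 225, 154, 157, 145 and 110.1 CPM and a ratio of 0.584 (95% interval 0.548 to 0.621) at 48 h, where it was called lower. After the GC adjustment its change at 48 h was -0.36. PSMC1, PSMC4 and PSMC5 stayed within 1.5-fold of 0 h at every time. The ring's median was 0.28 at 12 h, 0.19 at 24 h and -0.05 at 48 h. GC-adjusted, it was 0.27, 0.33 and 0.08, so the sign changed at 48 h.

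PSMD1 and PSMD2 encode the large scaffolds of the base that dock ubiquitin receptors and shuttles. PSMD1 was at 114, 133, 177, 202, 178 and 148 CPM and was called higher at 6, 12 and 24 h, with a ratio of 1.56 (95% interval 1.47 to 1.66) at 24 h. After the GC adjustment it was at 0.17, 0.44 and 0.44 at these times, and at 0.16 at 24 h with the GC content of the coding sequence, so none of the 3 calls was kept. PSMD2 was at 396, 503, 346, 401, 386 and 308 CPM, among the most counted members, and no change of it passed 1.5-fold. Both scaffolds were above 0 h at 3 h, and at 48 h PSMD1 was above it and PSMD2 below it. Another base protein, the ubiquitin receptor PSMD4, has a line without a symbol in the table, so it falls outside the rule. That line was at 187, 196, 144, 146, 139 and 120.1 CPM, and a similar line for the proteasome inhibitor PSMF1 was at 206, 228, 146, 167, 153 and 125 CPM. Both were lower than 1.5-fold at 48 h, at -0.63 and -0.71.

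The lid removes ubiquitin chains, and 4 of its 8 genes were higher at 24 h, PSMD12, PSMD8, PSMD14 and PSMD6, with none lower at any time. These are 50% of the lid, against 21.6% of all genes, and after the GC adjustment PSMD8 alone was called, 12.5% against 16.5%. PSMD8 was at 259, 354, 299.8, 390.5, 453 and 454 CPM. It was above 0 h in all 5 DHT libraries and at 24 and 48 h was at nearly the same level, with ratios of 1.75 (95% interval 1.68 to 1.82) and 1.75 (95% interval 1.68 to 1.83). It is the member whose increase was most unlike that of genes of its GC content, 57.4%. The GC-adjusted change was 0.44, 0.54, 0.87, 1.25 and 1.24 in the order of time, the highest of all 42 members at 6, 12, 24 and 48 h. With the GC content of the coding sequence the values at 24 and 48 h were 1.24 and 1.22.

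PSMD12, a scaffold of the lid with 37.9% GC, was at 29.4, 23.4, 48.7, 51.7, 54.6 and 55.7 CPM, with a ratio of 0.796 (95% interval 0.685 to 0.925) at 3 h and 1.86 (95% interval 1.66 to 2.09) at 24 h. PSMD14, the enzyme that cuts ubiquitin chains off the substrate, was at 30.5, 31.1, 50.3, 51.9, 49.9 and 55.0 CPM, with ratios of 1.64 (95% interval 1.46 to 1.84) at 24 h and 1.80 (95% interval 1.60 to 2.04) at 48 h. After the GC adjustment PSMD12 was at 0.15 and -0.18 at 24 and 48 h, so it changed sign at 48 h, and PSMD14 at 0.58 and 0.68. With the GC content of the coding sequence PSMD12 was at 0.23 and -0.06, and PSMD14 at 0.18 and 0.12, short of 1.5-fold. PSMD11, whose level is known to bear on how much of the core is capped, was at 90.2, 107, 107, 123, 107 and 83.0 CPM, with no call. PSMD3, with 58.6% GC, was at 309.6, 367, 231, 286, 282 and 236 CPM, lowest at 6 h, where its ratio was 0.746 (95% interval 0.712 to 0.782). PSMD7 and PSMD13 stayed within 1.5-fold at every time. The lid's median was 0.22, 0.52, 0.54 and 0.38 at 6, 12, 24 and 48 h. After the GC adjustment it was 0.04, 0.31, 0.37 and 0.15, and with the GC content of the coding sequence 0.22 at 24 h and 0.02 at 48 h.

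The 4 activator genes, whose products cap the core in place of the ATP-driven particle, split into opposite directions. PSME1, one of 2 chains of the cytosolic activator that interferon is known to raise, was at 160.4, 201, 132, 137, 99.8 and 86.0 CPM. It was above 0 h at 3 h and below it from 6 h on, with ratios of 1.26 (95% interval 1.19 to 1.33) at 3 h, 0.622 (95% interval 0.585 to 0.662) at 24 h and 0.536 (95% interval 0.500 to 0.575) at 48 h, the largest decrease of any member. PSME2, its partner chain, was within 1.5-fold of 0 h at every time, with a ratio of 1.04 (95% interval 0.945 to 1.14) at 24 h. The GC-adjusted changes at 24 h were -0.40 for PSME1 and 0.50 for PSME2. With the GC content of the coding sequence they were -0.48 and 0.11. At 48 h these were -0.65 for PSME1, past 1.5-fold, and -0.17 for PSME2. RefSeq lists 6 pseudogenes of PSME2, which may take or give reads. PSME3, the nuclear activator of the same family, reached -0.48 at 48 h, not called, and -0.25 or -0.97 after the adjustment for GC content of the transcript or of its coding sequence.

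PSME4, the large nuclear activator that works without ATP, was at 78.7, 73.8, 141, 158, 153 and 169.9 CPM. It lies on chromosome 2, and its levels at 6, 12, 24 and 48 h were all above those at 0 and 3 h, with ratios of 1.95 (95% interval 1.82 to 2.09) at 24 h and 2.16 (95% interval 2.01 to 2.32) at 48 h. The GC-adjusted changes were 0.52 and 0.51. The gene starts 120 bases from ACYP2, an acylphosphatase gene read in the other direction, with a transcript of about the same GC content, 41.6% against 41.5%. ACYP2 was at 14.4 CPM at 0 h and 7.63 CPM at 24 h, a change of -0.84, and at -1.09 at 48 h, so the neighbours moved apart. In all, 9 of 38 members with a RefSeq start, 23.7%, had another gene starting within 1000 bases in the other direction, against 28.6% of tested genes.

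Of the 6 assembly chaperones, PSMD5 alone was called higher at 24 h, 16.7% against 21.6% of all genes. PSMD5, which holds the base together during assembly and is known to keep core and cap apart when in excess, was at 6.90, 10.5, 15.8, 16.1, 20.3 and 18.3 CPM. It was the member with the largest increase at 24 h, with a ratio of 2.93 (95% interval 2.33 to 3.72), and was already at 0.54 at 3 h, the largest member change there. Its GC-adjusted change was 0.97 at 24 h and 0.67 at 48 h, and 1.11 and 0.89 with the GC content of the coding sequence. PSMD10, another base chaperone, was called higher at 12 h, at 0.64, and not at 24 h, at 0.48. GC-adjusted, it was at 0.02 and 0.05. PSMG3, a chaperone of the alpha ring, was at 36.5, 37.0, 29.9, 37.6, 26.8 and 30.04 CPM, the lowest change of the class at 24 h, -0.43. PSMD9, PSMG1 and PSMG2 were within 1.5-fold at every time. The class median was -0.04 at 24 h, and 0.05 GC-adjusted. PSMC3IP, outside the complex, was at 20.7, 27.0, 27.2, 36.1, 30.6 and 29.3 CPM and shares 710 bases of exon with MLX on the other strand.

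Set side by side at 24 h, the regulatory particle (ATPase ring, base and lid) had 12 of 16 genes above zero with a median of 0.35. These 16 leave out PSMD4 and the proteasome gene SHFM1, which both fall outside the rule on symbols. At 24 h PSMD4 was at -0.42 without adjustment, and SHFM1 was at 0.47, or -0.46 GC-adjusted. The core had 7 of 16 above zero with a median of -0.05, against 45.7% of all genes. After the GC adjustment 16 of 16 genes of the regulatory particle and 7 of 15 of the core were above zero, against 50.4% of all genes, with medians of 0.34 and -0.02. With the GC content of the coding sequence these were 13 of 16 and 8 of 15, against 50.1%. At 48 h the GC-adjusted counts were 10 of 16 and 5 of 15, against 49.3% of all genes. With the GC content of the coding sequence they were 7 of 16 and 4 of 15 at 48 h, also against 49.3%, so the regulatory particle then had fewer than 8 of its 16 genes above zero. With 1 library per time the difference between both parts was not tested.

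**Figure D4:**
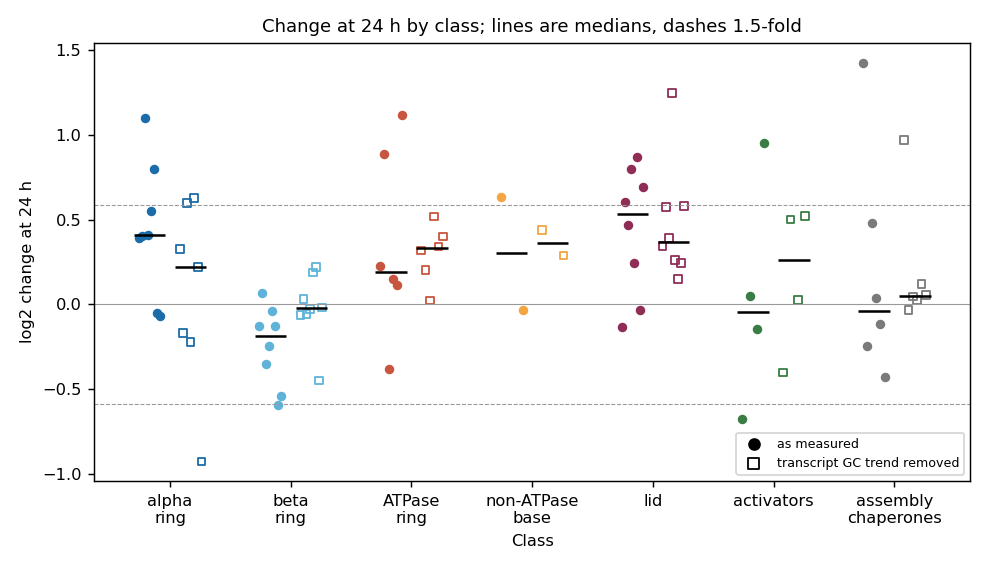
Log2 change at 24 h (vertical) by class (horizontal), 1 point per gene; filled circles are changes as measured, open squares the same genes with the transcript GC trend removed, black lines class medians and dashed lines the 1.5-fold size. The open squares of ATPase ring, base and lid all lie above zero, with PSMD8 at the top at 1.25, and the beta ring lies near or below zero.

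Per kb of transcript the beta ring genes were the most abundant class and the assembly chaperones the least. At 0 h the class medians were 152 CPM per kb for the beta ring, 43.6 for the alpha ring, 71.3 for the ATPase ring, 74.5 for the base, 48.1 for the lid, 90.2 for the activators and 20.2 for the chaperones. The highest gene per kb was PSMB4, at 402 CPM per kb at 0 h, and the lowest PSMD5, at 2.01 CPM per kb. At 24 h the median of the alpha ring was 88.5 CPM per kb and that of the beta ring 143 CPM per kb. The middle alpha gene was PSMA2 at 0 h and PSMA3 at 24 h, and so the level in the middle moved more than the ring's median change of 0.41, or 0.22 GC-adjusted. PSMD8 went from 169 to 294 CPM per kb, the highest of the lid at both times. The lengths are those of GENCODE transcripts, some with long 3′ ends (4448 bases for PSMC1), so an order of neighbouring genes is uncertain.

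**Figure D5:**
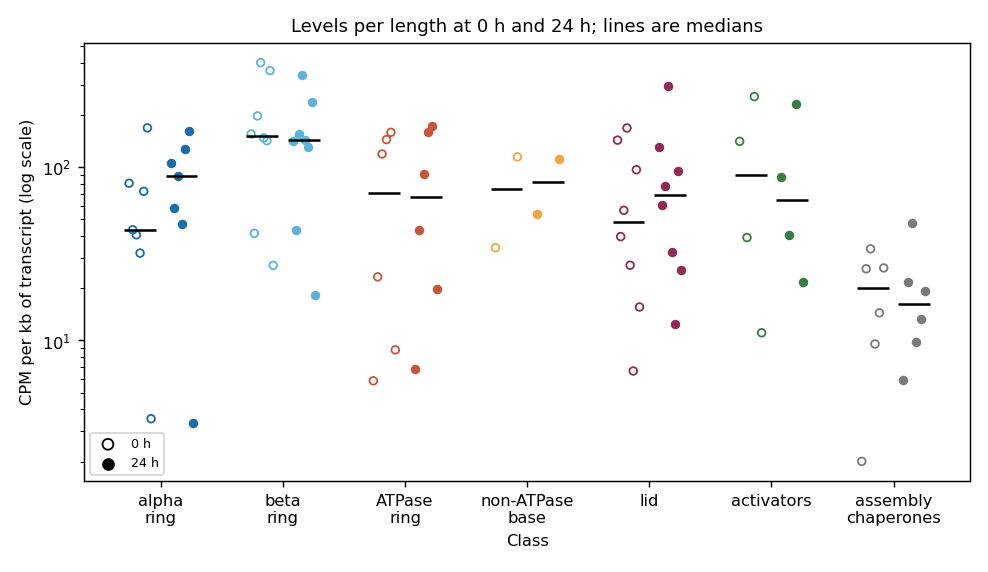
Level in CPM per kb of transcript (vertical, log scale) by class (horizontal) at 0 h (open) and 24 h (filled), 1 point per gene and black lines for class medians. The beta ring has the highest median at both times, 152 and 143 CPM per kb, and the assembly chaperones the lowest, 20.2 and 16.3 CPM per kb.

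Genes around the proteasome were read from lists and not from how they moved. Of 9 measured genes of proteins that bind the proteasome or help build it, 1 was higher and 0 lower at 24 h, with a median change of 0.29, against 21.6% of all genes higher and 24.2% lower. Over the 8 genes with a known GC content the GC-adjusted median was -0.15, with 0 higher and 1 lower, against 16.5% and 16% of all genes. The higher gene was UCHL5, a deubiquitinating enzyme of the base, at 7.97, 6.87, 20.3, 21.9, 18.9 and 27.8 CPM, a change of 1.15, with no GC content known. USP14, the other deubiquitinating enzyme bound there, was at 0.57, and POMP, the maturation factor of the core, at 0.30. Both changed sign with the GC adjustment, to -0.13 and -0.69, the latter past 1.5-fold. Of 11 genes that control proteasome genes 3 were higher, 27.3% against 21.6% of all genes, and 0 lower, with a median of 0.21. The GC-adjusted median, over 10 genes, was 0.41, with 5 higher and 0 lower, against 16.5% and 16% of all genes. These 5 were NFE2L2, NGLY1, MAFG, MAFK and KEAP1, the last 3 at 0.91, 0.66 and 0.66. As measured, without the adjustment, MAFG, MAFK and KEAP1 were at 0.47, 0.04 and 0.13, none called. NFE2L2, a factor of the antioxidant response, was at 25.4, 20.5, 79.2, 65.0, 74.1 and 66.3 CPM, a change of 1.51 at 24 h and 1.42 after the GC adjustment. NGLY1, the enzyme that removes sugar chains from NFE2L1 and so helps to activate it, was at 0.99, and the NF-Y subunit NFYB at 0.59. GC-adjusted, NGLY1 was at 0.78, and NFYB, at -0.27, changed sign. NFE2L1 itself was at 475, 477, 372, 416, 415 and 447 CPM, with no call.

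Of 16 measured genes of ubiquitin, its activation and its shuttles 5 were higher and 2 lower at 24 h, 31.2% and 12.5% against 21.6% and 24.2% of all genes, with a median of 0.03. The GC-adjusted median was 0.25, with 5 higher and 0 lower, against 16.5% and 16% of all genes. UBA6, a ubiquitin-activating enzyme on chromosome 4, was at 2.03, and 1.15 after the GC adjustment. VCP, the segregase that hands substrates to the proteasome, was at 0.65, and 0.87 GC-adjusted. One of the lower genes was the ubiquitin gene UBB, at -0.61, and -0.40 GC-adjusted. Of the 9 genes of the COP9 signalosome, a complex built like the lid, 2 were higher and 1 lower, 22.2% and 11.1% against the same shares of all genes, with a median of -0.02, or 0.14 GC-adjusted. These were COPS2 at 1.62, COPS4 at 0.79 and COPS7A at -0.70, and GC-adjusted they were at 0.61, 0.38 and -0.36.

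Reads of some members may be shared with other genes, and whether the counts used strand is not given in the sources used here. RefSeq lists 13 pseudogenes of PSMC1, 4 each of PSMA6 and PSMD7, 3 of PSMC6 and 1 each of PSMA3 and PSMD8. Exons of 16 members overlapped another gene's exons in GENCODE v29. Among them PSMC1 overlapped NRDE2 on the other strand by 3157 bases, PSMC5 overlapped FTSJ3 by 332 bases, PSMG2 overlapped CEP76 by 289 bases and PSMD13 overlapped SIRT3 by 219 bases. On the same strand PSMD9 overlapped WDR66 by 436 bases and PSMA6 overlapped another gene by 226 bases. PSMD7 and PSMD11 overlapped genes on the other strand by 550 and 354 bases. Values of PSMC1, PSMC5, PSMG2, PSMD13, PSMD9, PSMA6, PSMD7 and PSMD11 are uncertain for this reason.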

How the data were processed

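RNA of LNCaP cells was sequenced in 6 libraries, 1 per time. Per the labels' protocols, total RNA and the manufacturer's library protocol for the Illumina GAIIx were used. The submitters' processing notes name hg19. Aligner, counter and strand setting: not given in the sources used here.

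For each RefSeq transcript and library, the authors' table holds, per the file headers, a tag count and an RPM value (headed ppm). The count values deposited by the authors are whole numbers. The RPM values are the same counts scaled by the authors to all reads of the library, of which the listed transcripts held 86.9 to 89.5%. Counts were used, and scaling by the RPM denominator was tried as well. From 18051 lines, 50 exact repeats were dropped and transcripts with the same symbol were summed, giving 17990 genes. Lines with no gene name took 1.19% of the counts and stayed in the totals. The 6 totals, from 0 to 48 h, were 13179917, 14113170, 13410529, 13627453, 20587956 and 15046808, at which a count of 0 allows up to 0.146 to 0.228 CPM (3 counts). Intervals are at 95%, and with no molecular identifiers named they cover counting error only.

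The minimum was a mean of 20 counts and the pseudocount 1 CPM. No test was possible with 1 library a group, and sizes of 1.5-fold and 2-fold were the rules. GC content and length came from GENCODE v29 on GRCh38, for 93.5% of the tested genes, and the GC trend was a lowess curve of span 0.3 (statsmodels 0.14.6). Scripts were tested on simulated data. By rule, levels in all libraries are given for the catalytic subunits, the members with the highest and lowest change of their class at 24 h, PSMD4, PSMD11, PSMD14, PSMA4, PSME4 and members past 1.5-fold at 24 and 48 h, and up to 3 genes are named of each other list. ACYP2, NFE2L1, USP14, POMP, PSMC3IP, PSMF1, SHFM1, MAFG, MAFK and KEAP1 were added after their values were seen. The members, classes, lists and rules were chosen with earlier results of these data known. Alternatives were other scalings, pseudocounts, count minimums, the top transcript alone and GC trends. PSMB8, PSMB9, PSMB11 and PSMG4 were not analysed here, and some genes of the lists and 1 motif searched are not reported here.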

Additional observations from a re-analysis of the deposited data

Results flagged for a closer look

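For 4 members the ratio to 0 h lay at least 1.25-fold above 1 at one time and at least 1.25-fold below 1 at another, a difference between times that was not tested because each time has 1 library. PSMC6 was at a ratio of 0.787 at 3 h and at 3.24, 2.81, 2.25 and 2.57 at 6, 12, 24 and 48 h. PSMD12 was at 0.796 at 3 h and at 1.66, 1.76, 1.86 and 1.90 at the later times. PSMD2 was at 1.27 at 3 h and at 0.778 at 48 h. PSME1 was at 1.26 at 3 h, 0.622 at 24 h and 0.536 at 48 h. GC-adjusted, the log2 changes at 3 h were 0.00391 for PSMC6 and 0.00999 for PSMD12, and that of PSMD2 at 48 h was -0.00148. The GC-adjusted changes of PSMD12 at 6, 12, 24 and 48 h were -0.39, -0.11, 0.15 and -0.18. Those of PSME1 were 0.31 at 3 h, -0.40 at 24 h and -0.57 at 48 h.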

How the results depend on the processing

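No paired analysis was possible because each time has 1 library. For the same reason no library could be left out of a group. Subtracting the trend on transcript GC content moved counts of members. At least 1.5-fold higher were then 2, 0, 2, 5 and 4 members at 3, 6, 12, 24 and 48 h (0, 9, 15, 11 and 8 without it), and lower 2, 1, 1 and 2 at 6, 12, 24 and 48 h. At least 2-fold higher were 0 at 6 and 12 h and 1 at 24 and 48 h, and 2-fold lower 1 at 6 and 48 h. It reversed PSMB6 (0.22), PSMC3 (0.0223), PSMD3 (0.35) and PSMG3 (0.0550) at 24 h and PSMB5 (0.0872), PSMD12 (-0.18), PSMD3 (0.0609) and PSMG3 (0.18) at 48 h. The trend on coding-sequence GC content, added after the data were seen, gave medians of -0.16 at 6 h and 0.0833 at 12 h. It gave 2, 1, 4, 4 and 3 members higher at 3 to 48 h, 3 lower at 6 h, and 2-fold higher 0 at 6 and 12 h and 1 at 48 h. It reversed the beta ring's median (0.00170), PSMB6 (0.24), PSMD3 (0.21) and PSMG3 (0.00694) at 24 h, and at 48 h the alpha ring's median (-0.0615), PSMA6 (-0.0615), PSMB5 (0.15), PSMD1 (-0.29), PSMD12 (-0.0645) and PSMG3 (0.14). Median-of-ratios scaling gave 1 member higher at 3 h and 0 lower at 24 h, a pseudocount of 0.25 CPM 1 higher at 3 h, and a pseudocount of 5 CPM or the deposited denominator 1 lower at 24 h. Among the scalings, median-of-ratios moved the median of all genes most, by -0.0979 at 6 h and 0.0905 at 24 h. With it the members' median at 6 h was 0.0971 (0.20 without it). Members called higher were then 7 at 6 h and 12 at 12 h, against 9 and 15. Under no count filter, a minimum mean of 100 counts, or the top transcript alone, no count or median of members moved. The cause of these moves was not tested. Depth limited low members most, such as PSMA8 and PSMD5.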
